A study of Mus musculus with 6 samples.

Results

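The 9 genes described here encode transcription factors of lacrimal gland development and acinar identity: Bhlha15, Elf5, Sox10, Barx2, Sox9, Pax6, Runx1, Runx2 and Foxc1. They were chosen by name, not by a threshold on measured values, from a table of 55401 gene identifiers. All 9 were found and all 9 passed the filter on low counts. RNA sequencing covered 3 lacrimal gland libraries of NOD/Ltj mice and 3 of ICR mice. NOD/Ltj mice are inbred and develop autoimmune inflammation of the tear glands on their own, and ICR mice, from an outbred stock, are labelled as controls. The groups therefore differ in their whole genetic background. The labels state no treatment, age, sex or number of animals per library for either group, and the series title names Sjögren's syndrome, an autoimmune disease of tear and salivary glands.

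The lacrimal gland is a branched gland that buds from the surface epithelium beside the eye when the surrounding mesenchyme sends a fibroblast growth factor signal. PAX6 gives that epithelium its ocular identity, SOX9 and SOX10 act within the growing bud, and BARX2 and the RUNX proteins take part in its outgrowth and branching. FOXC1 acts in the mesenchyme and in the epithelium. In the finished gland, acinar cells make and release the tear proteins, and MIST1, the product of Bhlha15, scales up their secretory apparatus. ELF5 is best known as a driver of secretory cells in the mammary gland.

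None of the 9 factors differed between NOD/Ltj and ICR glands past the test across all genes (edgeR's quasi-likelihood test, adjusted p under 0.05 over 18537 genes). By the same test 2.24% of all genes passed, 1.88% as higher and 0.361% as lower. Of the 9, 8 had a negative log2 fold change (NOD/Ltj over ICR), and Runx2 a positive one. The values of Barx2, Elf5 and Sox9 were lower in each NOD/Ltj library than in each ICR library, with fitted ratios of 0.41, 0.659 and 0.678. Such a separation was seen in 8.89% of all genes. On library totals without scaling factors only Barx2 of the 3 showed it, and there the share of all genes was not taken. The test without adjustment gave p under 0.05 for these 3 and for no other member, where 13.1% of all genes reached that, 5.05% of all genes being lower. DESeq2 and limma-voom also called 0 of the 9. Of all genes tested, DESeq2 called 1212 of 29193 and limma-voom 143 of 18537.

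The promoters of 6 of the 9 genes were listed in the RefSeq promoter table for build GRCm38.p6, with 9 start sites in all, whereas Barx2, Sox9 and Sox10 are named only. Shown here are the 250 bases before the first listed start of the 3 factors with the highest levels, and before both starts of Elf5. Of the 3 members that were lower in each NOD/Ltj library, only Elf5 had a listed promoter. Capitals mark matches, on either strand, to the letters CANNTG (the E-box bound by proteins of the MIST1 class), ACAATG (bound by SOX proteins), TGTGGT (RUNX), AGGAAG (the ETS class, to which ELF5 belongs) and GTAAACA (the forkhead class, to which FOXC1 belongs). No match overlaps another in these sequences.
Bhlha15, chr5:144190036-144190285, + strand: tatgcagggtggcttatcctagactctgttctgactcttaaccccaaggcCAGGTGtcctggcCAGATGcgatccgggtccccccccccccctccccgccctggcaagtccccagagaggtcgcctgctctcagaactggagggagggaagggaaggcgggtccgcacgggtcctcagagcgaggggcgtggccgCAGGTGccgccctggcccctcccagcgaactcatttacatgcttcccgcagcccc
Foxc1, chr13:31806396-31806645, + strand: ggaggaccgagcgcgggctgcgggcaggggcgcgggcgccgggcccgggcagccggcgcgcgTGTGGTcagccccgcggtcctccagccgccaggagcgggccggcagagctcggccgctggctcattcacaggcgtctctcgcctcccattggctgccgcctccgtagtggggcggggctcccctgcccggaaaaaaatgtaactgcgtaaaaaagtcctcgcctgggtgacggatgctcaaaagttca
Pax6, first start, chr2:105668646-105668895, + strand: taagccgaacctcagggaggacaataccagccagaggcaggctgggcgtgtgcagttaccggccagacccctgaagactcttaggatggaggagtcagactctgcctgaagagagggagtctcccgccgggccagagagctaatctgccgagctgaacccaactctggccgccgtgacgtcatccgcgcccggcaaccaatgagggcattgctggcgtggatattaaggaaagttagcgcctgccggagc
Elf5, first start, chr2:103411848-103412097, + strand: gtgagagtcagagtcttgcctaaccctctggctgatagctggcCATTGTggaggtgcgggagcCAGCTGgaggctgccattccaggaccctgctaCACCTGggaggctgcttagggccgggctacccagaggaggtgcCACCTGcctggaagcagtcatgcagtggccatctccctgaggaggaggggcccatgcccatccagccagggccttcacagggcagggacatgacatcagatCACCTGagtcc
Elf5, second start, chr2:103423818-103424067, + strand: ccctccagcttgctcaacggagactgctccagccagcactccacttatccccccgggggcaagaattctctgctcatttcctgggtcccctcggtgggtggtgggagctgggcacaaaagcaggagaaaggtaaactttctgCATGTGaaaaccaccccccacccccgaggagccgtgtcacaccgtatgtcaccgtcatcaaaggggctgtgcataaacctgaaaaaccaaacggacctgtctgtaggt

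The Bhlha15 window held 3 E-box matches and none of the other motifs, and 66.2% of 32851 promoter windows of this length held an E-box. The Foxc1 window held 1 RUNX match, as did 14.0% of all windows. No match was present in the window of the first Pax6 start, and the window of its second start, not shown, held 1 E-box match. The windows of the 2 Elf5 starts differed, with 4 E-box matches and 1 SOX match before the first and 1 E-box match before the second. A SOX match was present in 10.7% of all windows, an ETS match in 29.5% and a forkhead match in 3.2%. The counts were made per gene, so that transcripts from the 2 starts of Elf5, Pax6 or Runx1 could not be told apart.

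Levels of different genes were compared as CPM (the share of a library's counts, scaled to a common total) per kb of exon. Bhlha15 stood far above the others, at 93.6 ± 17.0 CPM per kb in NOD/Ltj and 124 ± 43.1 in ICR (SD, n = 3 each). Foxc1 (14.0 ± 3.31 in NOD/Ltj and 14.4 ± 2.59 in ICR) and Pax6 (9.64 ± 1.42 in NOD/Ltj and 10.99 ± 3.22 in ICR, CPM per kb, SD, n = 3 each) came next, and their ranges over the libraries overlapped in both strains. In NOD/Ltj, the ranges of Pax6, Sox9 and Elf5 lay apart from each other, at 8.11 to 10.9, 5.03 to 5.49 and 3.50 to 3.80 CPM per kb. In ICR the range of Sox9 (5.57 to 10.3 CPM per kb) overlapped those of Pax6 (8.26 to 14.5) and Elf5 (4.60 to 6.88).

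Sox10 covered 1.21 to 3.69 CPM per kb in NOD/Ltj, which overlapped Elf5 above it and Runx2 below it (1.58 to 2.05). In ICR Sox10 lay apart from both, at 2.47 to 3.55 CPM per kb. Runx1 and Barx2 had the lowest mean levels in both strains. Runx2 lay apart above them in NOD/Ltj, whereas in ICR it covered 1.17 to 1.86 CPM per kb and overlapped both, and in ICR 1 it was below both. The ranges of Runx1 and Barx2 were apart in NOD/Ltj, at 0.502 to 1.02 CPM per kb for Runx1 and 0.424 to 0.477 for Barx2, and overlapped in ICR, at 0.736 to 1.47 and 0.665 to 1.37.

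**Figure D1:**
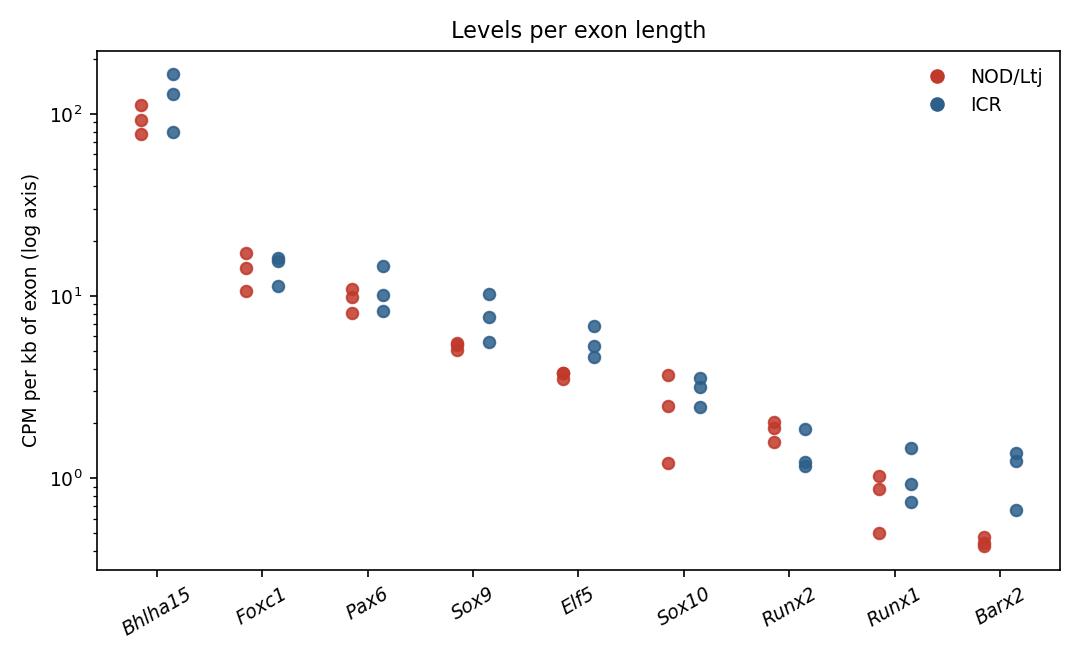
Level of each factor in CPM per kb of exon (y axis, log scale) in the 3 NOD/Ltj libraries (red) and the 3 ICR libraries (blue), ordered by the NOD/Ltj mean. Bhlha15 is at 77.4 CPM per kb or above in every library, and no other factor exceeds 17.2.

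Of the factors of the acinar cell, Bhlha15 stood at 389, 270 and 322 CPM in NOD/Ltj libraries 1, 2 and 3, against 276, 452 and 576 CPM in ICR libraries 1, 2 and 3 (CPM on library sizes scaled by the trimmed mean of M-values, TMM). The groups overlapped, since ICR 1 was close to the lowest NOD/Ltj library and ICR 3 was the highest of the 6. The log2 fold change was −0.41 ± 0.32 (SE, adjusted p = 0.692), with a 95% interval of the ratio from 0.447 to 1.27. Without ICR 3 the log2 fold change was −0.15, and without ICR 1 it was −0.67, neither of them called.

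Elf5 had 20.6, 22.2 and 22.3 CPM in NOD/Ltj, against 27.0, 31.2 and 40.4 CPM in ICR. The 3 NOD/Ltj libraries lay close together and below the lowest ICR library. NOD/Ltj over ICR, the log2 fold change was −0.60 ± 0.19 (SE, adjusted p = 0.22), a ratio of 0.659 with a 95% interval from 0.485 to 0.897 that is not adjusted for the number of genes. On plain library totals, without the TMM factors, the Elf5 groups overlapped, at 17.6, 27.9 and 23.6 CPM in NOD/Ltj and 32.0, 25.3 and 36.9 CPM in ICR. The adjusted p of Elf5 was lowest without ICR 1, at 0.0714.

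Sox10, which marks acinar and myoepithelial cells of the gland and also Schwann cells, had 3.69, 11.3 and 7.62 CPM in NOD/Ltj, against 9.69, 7.54 and 10.8 CPM in ICR. NOD/Ltj libraries held both its lowest value and its highest. Its log2 fold change was −0.31 ± 0.39 (SE, adjusted p = 0.8255), with an interval of the ratio from 0.431 to 1.504. Without NOD 1 it was 0.0135 and without NOD 2 it was −0.73. The 9 Schwann cell markers summed to 34.7 to 38.7 CPM in NOD/Ltj and 37.2 to 56.6 CPM in ICR, with 0 of the 8 tested called (0 at an unadjusted p under 0.05, 0 by DESeq2 and 0 by limma-voom).

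Barx2, a homeobox factor of bud elongation, had the fold change farthest from 0 of the 9. It had 0.87, 0.835 and 0.939 CPM in NOD/Ltj, against 2.70, 1.31 and 2.45 CPM in ICR. Its groups were also apart on plain library totals, at 0.746, 1.05 and 0.995 CPM in NOD/Ltj and 3.20, 1.06 and 2.24 CPM in ICR, where NOD 2 and ICR 2 differed by little. The log2 fold change was −1.29 ± 0.38 (SE, adjusted p = 0.184), a ratio of 0.41 with an unadjusted 95% interval from 0.221 to 0.761. These values rested on 47 to 187 counts a library. No other member had so few, and the depth limits Barx2 most. BARX2 is also known from muscle progenitor cells, and skeletal muscle markers summed to 1.74 to 6.33 CPM in NOD/Ltj and 1.62 to 160 CPM in ICR, the top value in ICR 3. The log2 fold change of Barx2 was −1.19 without ICR 3. The part of muscle cells in the level of Barx2 was not tested.

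**Figure D2:**
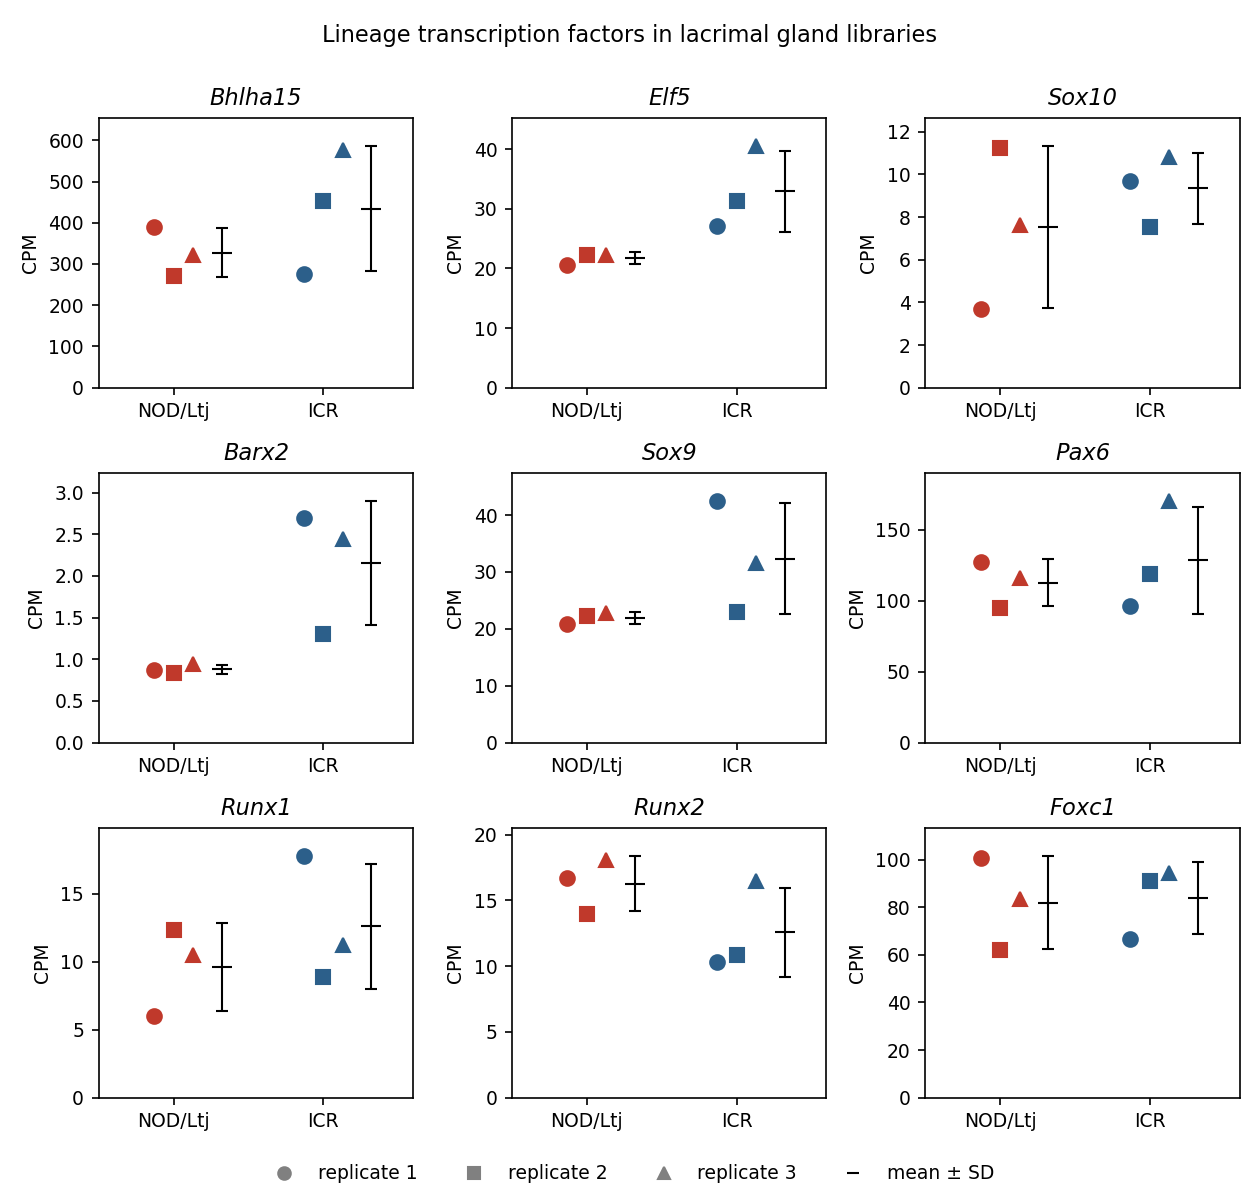
CPM on TMM-scaled library sizes (y axes, each from 0) of the 9 factors in each NOD/Ltj library (red, left) and each ICR library (blue, right), with marker shape for the replicate number and black bars for mean ± SD (n = 3). The groups lie apart for Elf5, Barx2 and Sox9 and overlap for the other 6 factors.

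Sox9, which in the bud is needed for the response to fibroblast growth factor and in many adult glands marks ducts and progenitor cells, had 20.8, 22.3 and 22.7 CPM in NOD/Ltj, against 42.4, 23.0 and 31.6 CPM in ICR. The NOD/Ltj libraries were within 2 CPM of each other, and ICR 2 lay just above them. NOD/Ltj over ICR, the log2 fold change was −0.56 ± 0.23 (SE, adjusted p = 0.371), a ratio of 0.678 with an unadjusted 95% interval from 0.464 to 0.991. It was −0.33 without ICR 1 and −0.75 without ICR 2. On plain library totals the groups overlapped, at 17.8, 27.9 and 24.1 CPM in NOD/Ltj and 50.2, 18.6 and 28.9 CPM in ICR. Ductal markers had values in the same direction: all 10 tested had a negative log2 fold change on TMM-scaled counts, with a median of −1.15 and 0 called (3 lower at an unadjusted p under 0.05, 2 lower by DESeq2 and 0 by limma-voom), and 7 of the 10 were lowest in NOD 1, as Sox9 was. Those of Ltf (−0.06) and Krt14 (−0.0273) were smaller than the shift of 0.122 that plain library totals gave the median of all genes. Such a direction was not particular to ductal markers. All 7 adipocyte and all 8 fibroblast markers tested also had a negative log2 fold change, with 0 called by edgeR, DESeq2 or limma-voom. Of these, 7 adipocyte and 2 fibroblast markers were lowest in NOD 1. All 8 B cell and all 10 T cell markers had a positive log2 fold change. The part of ductal or other cells in the level of Sox9 was not tested.

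Pax6 had 128, 94.8 and 116 CPM in NOD/Ltj, against 96.5, 119 and 170 CPM in ICR. The groups overlapped over most of their range, with ICR 3 alone above the NOD/Ltj libraries. Its log2 fold change was −0.19 ± 0.26 (SE, adjusted p = 0.842), with an interval of the ratio from 0.576 to 1.33, and it was 0.0635 without ICR 3.

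Runx1, a factor of lacrimal bud epithelium that is also used by blood cells, had 6.04, 12.3 and 10.5 CPM in NOD/Ltj, against 17.7, 8.85 and 11.2 CPM in ICR. The lowest value was in NOD 1 and the highest in ICR 1, with the other 4 libraries between 8.85 and 12.3 CPM. The log2 fold change was −0.39 ± 0.34 (SE, adjusted p = 0.732), with an interval of the ratio from 0.437 to 1.33, and it was −0.0709 without ICR 1.

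Runx2, better known from bone and also present in T and dendritic cells, had 16.7, 14.0 and 18.1 CPM in NOD/Ltj, against 10.4, 10.9 and 16.5 CPM in ICR. ICR 3 lay among the NOD/Ltj values and the other ICR libraries below them. NOD/Ltj over ICR, the log2 fold change was 0.37 ± 0.23 (SE, adjusted p = 0.572), with an interval of the ratio from 0.895 to 1.87, and it was 0.61 without ICR 3. Antisense transcripts share 519 exonic bases with Runx2 (Runx2os1) and 106 with Runx1 (Gm26626), and the strand setting of the counting is not given. The counts assigned to them were 0 to 23 and 0 to 16 a library, against 674 to 1194 for Runx2 and 326 to 1227 for Runx1.

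Foxc1, a forkhead factor of periocular mesenchyme and of the gland epithelium, had 101, 61.9 and 83.4 CPM in NOD/Ltj, against 66.5, 90.9 and 94.2 CPM in ICR. The groups covered nearly the same range. The log2 fold change of −0.0332 ± 0.24 (SE, adjusted p = 0.978) was the smallest of the 9, with an interval of the ratio from 0.659 to 1.45.

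**Figure D3:**
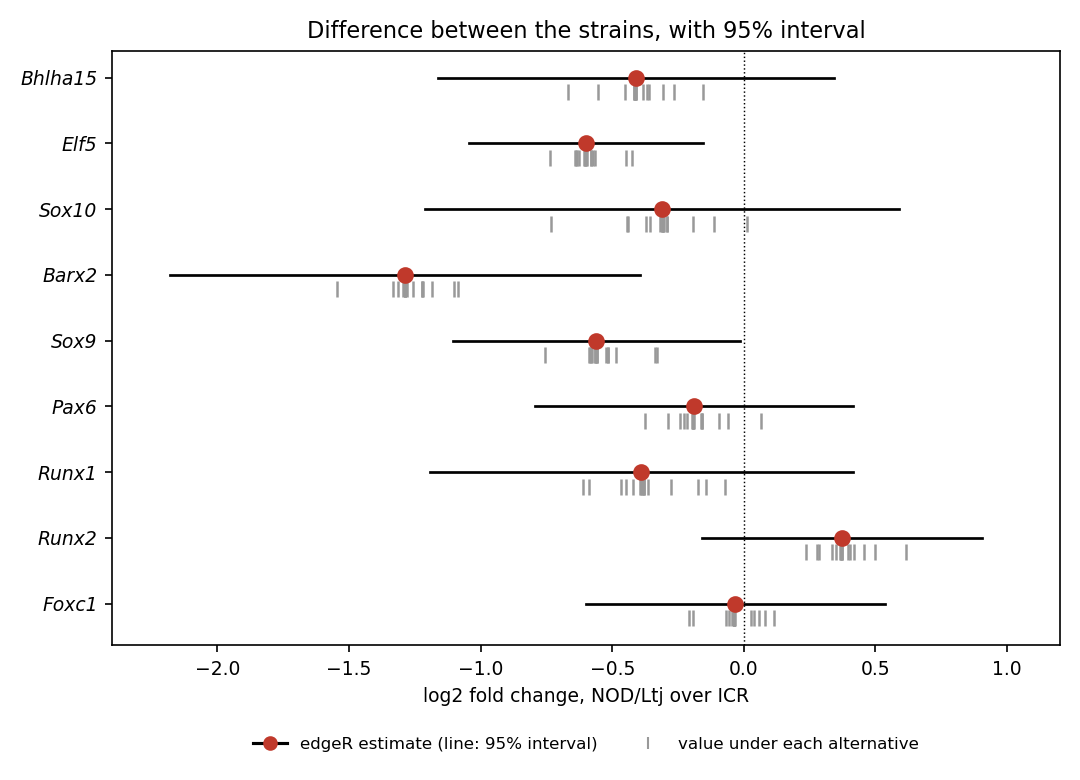
Log2 fold change, NOD/Ltj over ICR (x axis), of each factor by edgeR (red points) with its 95% interval, not adjusted for the number of genes (black lines), and its value under each of 16 other settings (grey ticks). Barx2 lies farthest from 0, at −1.29, and Foxc1 nearest to it, at −0.0332.

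On TMM-scaled CPM, the spread between replicates was larger in ICR than in NOD/Ltj for 7 of the 9 factors. In NOD/Ltj the coefficient of variation of Sox9, Elf5 and Barx2 was 4.52, 4.55 and 6.03%, against 30.0, 20.8 and 34.5% in ICR. Sox10 ran the other way, with 50.4% in NOD/Ltj and 17.8% in ICR, and Foxc1 had 23.6% in NOD/Ltj and 18.04% in ICR. The narrow NOD/Ltj spreads rested on the TMM factors: on plain library totals the coefficients of Sox9, Elf5 and Barx2 were 21.9, 22.3 and 17.3% in NOD/Ltj, against 49.5, 18.7 and 49.6% in ICR, so that the order of Elf5 turned round. No test of these spreads was made with 3 libraries a group.

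The factors did not share 1 pattern across libraries. Sox9, Runx1 and Barx2 had their highest value in ICR 1, whereas Bhlha15, Pax6 and Elf5 had theirs in ICR 3. Bhlha15, Pax6, Foxc1 and Barx2 were lowest in NOD 2, and Sox9, Elf5, Sox10 and Runx1 in NOD 1. The TMM factors ran from 0.809 (ICR 2) to 1.255 (NOD 2), and part of this order moved with the scaling. On plain library totals, Bhlha15 covered only 333 to 341 CPM in NOD/Ltj and 327 to 526 CPM in ICR, and Foxc1 differed by 1.201 times between its highest and lowest library.

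**Figure D4:**
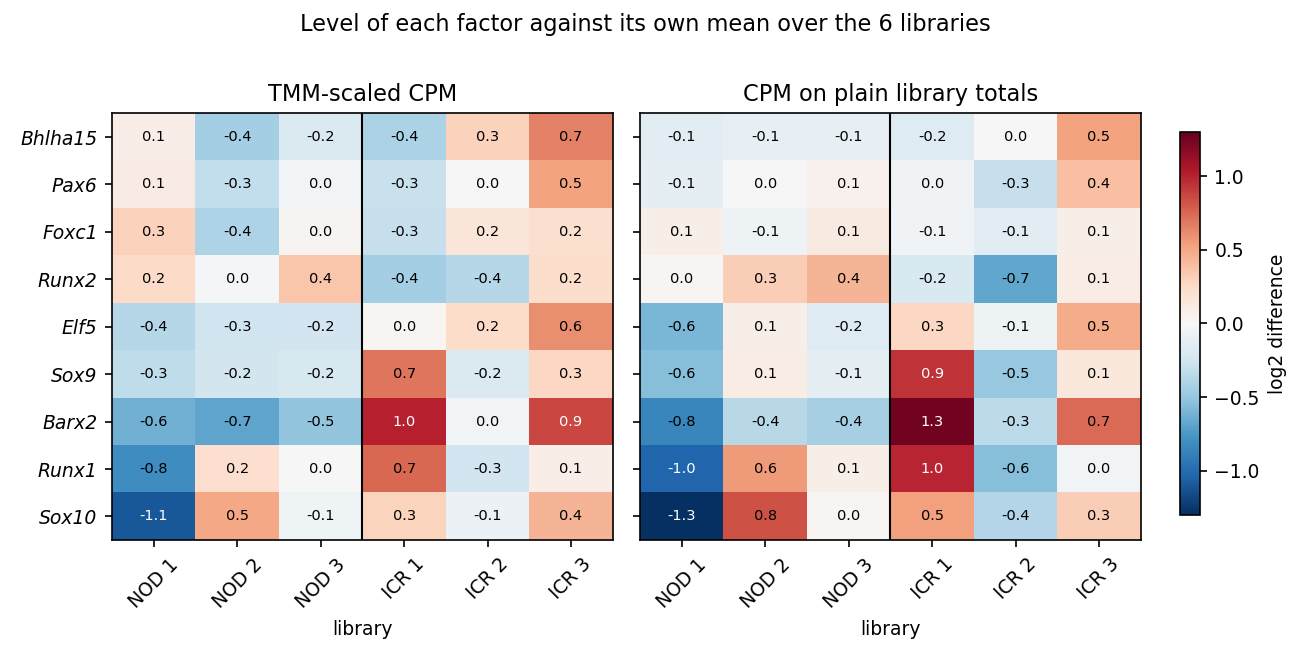
Log2 difference of each factor (rows) in each library (columns, NOD/Ltj left of the line, ICR right of it) from its own mean over the 6 libraries, on TMM-scaled CPM (left panel) and on plain library totals (right panel). Sox10 and Runx1 are lowest in NOD 1 in both panels, and the low values of Bhlha15 and Foxc1 in NOD 2 and ICR 1 are smaller in the right panel.

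Cell markers differed between the same libraries. In ICR 1, 8 of 8 fibroblast markers and 6 of 10 ductal markers had their highest value. The fibroblast markers summed to 429 to 575 CPM in NOD/Ltj and 609 to 3007 CPM in ICR, and the ductal markers to 376 to 1294 CPM in NOD/Ltj and 542 to 1365 CPM in ICR, most of it Ltf, the secreted protein lactoferrin. In ICR 3, 10 of 13 salivary gland markers and 10 of 10 skeletal muscle markers were highest. The salivary markers, which include Bhlha15, summed to 430 to 2818 CPM in NOD/Ltj and 950 to 14735 CPM in ICR. Their part in the levels of the 9 factors was not tested. In bulk tissue, fewer cells of a type and less RNA per cell cannot be told apart.

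The labels name the tissue as lacrimal gland. The acinar genes Aqp5, the water channel, and Pip, a secreted protein, were present throughout. Aqp5 had 77.3, 79.2 and 71.5 CPM in NOD/Ltj and 108, 102 and 82.3 CPM in ICR. Pip stood at 7595 to 11721 CPM in NOD/Ltj and 7761 to 11088 CPM in ICR. Of 9 acinar markers tested, 1 was lower, Prol1, a secreted proline-rich protein, with a log2 fold change of −4.95 ± 0.69 (SE, adjusted p = 0.01605). Prol1 and Amy1 of this list are also among the salivary gland markers. The 9 acinar markers together summed to 13278 to 24027 CPM in NOD/Ltj and 52651 to 80340 CPM in ICR. Pip and Obp1a, an odorant-binding protein, made up most of these sums. Obp1a had 3962, 4966 and 16198 CPM in NOD/Ltj and 72172, 65050 and 39435 CPM in ICR (not called, adjusted p = 0.1098). DESeq2 called 2 of these markers lower and limma-voom 0, and no marker was called with any 1 of the NOD/Ltj libraries or ICR 3 left out. The 10 lipid genes listed for the Harderian and sebaceous glands summed to 263 to 318 CPM in NOD/Ltj and 369 to 399 CPM in ICR, with 0 of 8 tested called (1 higher and 1 lower before adjustment, 0 by DESeq2 and 0 by limma-voom). Most of that sum was Scd1 and Soat1, lipid enzymes of many tissues, while Awat1 and Elovl3 were at 0 in NOD/Ltj and at or under 0.173 CPM in ICR.

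Lymphocyte markers were higher in NOD/Ltj. Of 8 B cell markers, 7 rose, with a median log2 fold change of 5.91, and of 10 T cell markers 7 rose, with a median of 4.35. The median of the 9 factors was −0.39, and that of all genes tested was −0.0294. DESeq2 called 8 of the B cell and 10 of the T cell markers, and limma-voom 3 and 1. Without NOD 3 none of either list was called, and the T cell count was 3 without NOD 2 and 4 without ICR 2 or without ICR 3. In either direction on TMM-scaled CPM, 33.3% of the 9 factors showed no overlap of the groups, against 20.0% of all genes tested. On plain library totals 1 of the 9 showed no overlap, and the share of all genes was not taken. Of the 9, 8 had a negative log2 fold change, as did 53.0% of all genes.

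Bhlha15 is also made by plasma cells, the antibody-secreting cells, and Runx1 and Runx2 by T cells. Plasma cell markers summed to 660, 632 and 557 CPM in NOD/Ltj and 242, 784 and 290 CPM in ICR, with 0 of 8 called (1 at an unadjusted p under 0.05, 1 by DESeq2 and 0 by limma-voom). Jchain and Derl3 made up most of these sums. Of the 8 markers, 5 had a positive log2 fold change and 3 a negative one, from 2.39 for Pou2af1 to −0.59 for Derl3. T cell markers summed to 39.7, 121 and 93.5 CPM in NOD/Ltj and 3.96, 4.70 and 5.66 CPM in ICR. The part of these cells in the levels of Bhlha15, Runx1 and Runx2 was not tested. Runx3, the family member best known from cytotoxic T cells, had 1.28, 2.65 and 1.71 CPM in NOD/Ltj and 0.39, 0.129 and 0.717 CPM in ICR, with a log2 fold change of 2.19 that was not called (adjusted p = 0.177).

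Of 21 tested relatives of the 9 factors, 1 rose and 20 were not called. The gene that rose was Pax5, the factor of B cell identity and a relative of Pax6, with a log2 fold change of 6.37 ± 0.60 (SE, adjusted p = 0.00647). DESeq2 called 3 of the relatives and limma-voom 0, and none was called without NOD 3. Elf4, an ETS factor of lymphocytes and a relative of Elf5, had a log2 fold change of 2.01 (adjusted p = 0.0646). Cbfb, the partner subunit that all RUNX proteins bind, stood at 17.5, 17.5 and 18.4 CPM in NOD/Ltj and 26.9, 13.9 and 14.2 CPM in ICR (adjusted p = 0.9752), the highest value again in ICR 1.

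Lacrimal development was represented by 36 other genes, of which 33 were tested and 0 called (2 higher and 2 lower before adjustment at p under 0.05, 1 higher by DESeq2 and 0 by limma-voom). Their median log2 fold change was −0.16. Fgf10, the mesenchymal growth factor that induces the bud, had 0.556, 0.785 and 1.33 CPM in NOD/Ltj, against 4.49, 1.74 and 1.84 CPM in ICR. Its groups did not overlap and its log2 fold change of −1.59 ± 0.52 did not pass (SE, adjusted p = 0.24). Its receptor Fgfr2 had 3.70, 5.11 and 6.83 CPM in NOD/Ltj and 2.98, 5.61 and 4.74 CPM in ICR (adjusted p = 0.852). Fgfr2 and Cbfb were added to the description after their values were seen.

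Other epithelial transcription factors gave no call. Of 18 tested, 0 were called (1 higher and 2 lower before adjustment at p under 0.05, 1 higher by DESeq2 and 0 by limma-voom), 17 had a negative log2 fold change and the median was −0.33. Klf5, a zinc finger factor of epithelial progenitors, had 1.43, 2.23 and 1.85 CPM in NOD/Ltj and 5.00, 2.49 and 2.64 CPM in ICR (adjusted p = 0.384). Zeb1, a repressor of the epithelial state, stood at 30.3 CPM in ICR 1 and at 3.54 to 8.01 CPM in the other 5 libraries.

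Genes linked to the factors followed the same test. Of 9 tested genes chosen as linked to MIST1, 0 were called (1 higher at an unadjusted p under 0.05, 1 higher by DESeq2, none by limma-voom), and had a median log2 fold change of −0.11. Rab3d, a granule GTPase whose gene MIST1 regulates in mouse acinar cells, stood at 69.7, 66.3 and 67.0 CPM in NOD/Ltj and 52.1, 88.7 and 49.8 CPM in ICR, and was added after its values were seen. Serpini1, a serine protease inhibitor, had the largest log2 fold change of this list, 1.10 ± 0.28 (SE, adjusted p = 0.112). Of 10 tested genes linked to SOX9 or SOX10, 0 were called (2 lower at an unadjusted p under 0.05, 1 lower by DESeq2, none by limma-voom), and had a median of −0.35. Among them Slc12a2, the chloride importer of secretion, had 21.0, 53.2 and 38.5 CPM in NOD/Ltj, against 132, 82.0 and 62.4 CPM in ICR (adjusted p = 0.207). The potassium channel gene Kcnn4 had 3.39, 11.8 and 7.00 CPM in NOD/Ltj, against 27.2, 12.99 and 16.5 CPM in ICR (adjusted p = 0.267). Both were lowest in NOD 1 and highest in ICR 1, the libraries with the lowest and the highest value of Sox9 and also of Runx1. The list as a whole did not share this pattern. Of its 12 genes, 3 in all were highest in ICR 1 and 3 in ICR 3, and 6 were lowest in NOD 1, some of them at 0 there. Slc12a2 is also among the ductal markers.

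Other regulators of secretory cells gave 0 calls among 11 tested (1 higher and 2 lower before adjustment at p under 0.05, 1 higher and 1 lower by DESeq2, none by limma-voom), and had a median log2 fold change of 0.0049. The regulator of mitochondrial biogenesis Ppargc1a had 0.463, 0.473 and 0.606 CPM in NOD/Ltj, against 1.82, 1.49 and 1.24 CPM in ICR (adjusted p = 0.106). Myb, known from progenitor and blood cells, had 1.33, 3.31 and 2.33 CPM in NOD/Ltj and 0.26, 0.468 and 0.874 CPM in ICR (adjusted p = 0.13).

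**Figure D5:**
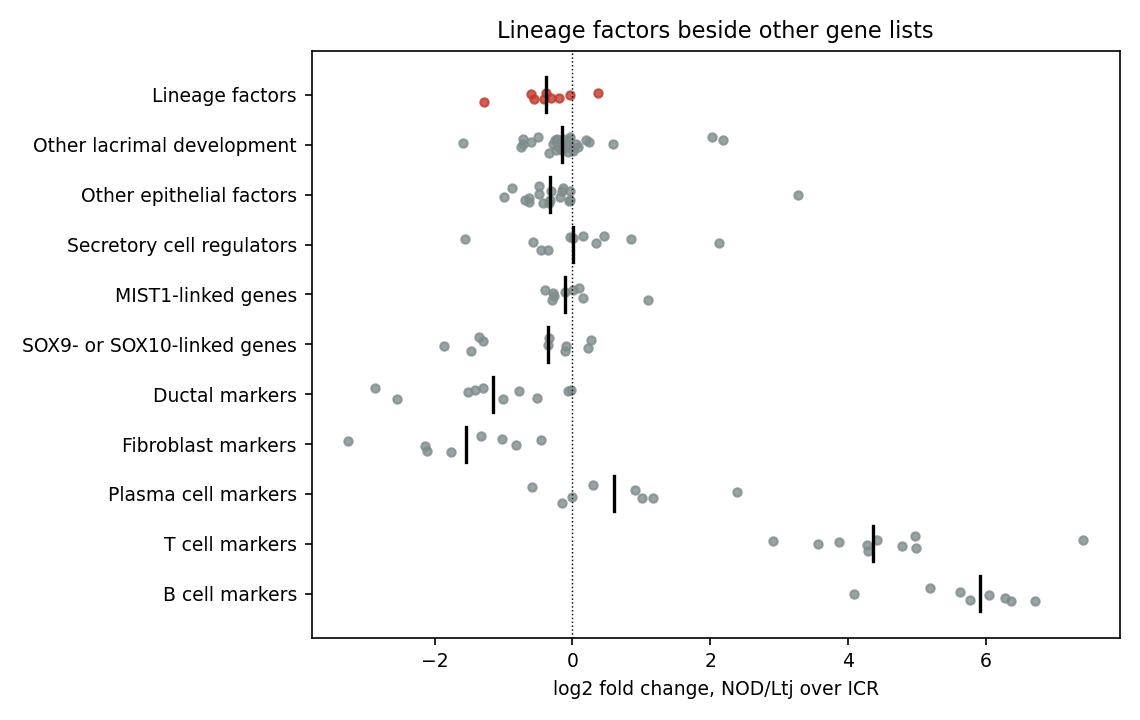
Log2 fold change, NOD/Ltj over ICR (x axis), of each tested gene (points) in the lineage factors (red) and in 10 other lists (grey), with the median of each list as a black bar. The lineage factors lie between −1.29 and 0.37, and the medians of the T and B cell markers at 4.35 and 5.91.

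Ratios between factors within a library do not depend on the scaling, and 4 were compared, chosen after the values were seen, by exact permutation tests (two-sided, n = 3 each, smallest p possible 0.1, adjusted over the 4). Elf5 to Bhlha15 was 0.0528, 0.0822 and 0.0694 in NOD/Ltj, against 0.098, 0.0692 and 0.0702 in ICR (exact p = 0.5, adjusted p = 0.9). Runx2 to Runx1 was 2.77, 1.14 and 1.72 in NOD/Ltj, against 0.584, 1.23 and 1.47 in ICR (exact p = 0.3, adjusted p = 0.9). The groups overlapped in both. Sox9 to Sox10 was 5.65, 1.98 and 2.98 in NOD/Ltj, against 4.37, 3.05 and 2.92 in ICR, and Sox9 to Bhlha15 was 0.0535, 0.0824 and 0.0706 in NOD/Ltj, against 0.154, 0.051 and 0.0549 in ICR (exact p = 0.9 for each). With 0.1 as the smallest p possible, no ratio could have reached 0.05, so these tests cannot decide whether the ratios differ.

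Set against 10 epithelial genes such as Epcam and Krt8 in place of the TMM factors, Barx2 had groups that did not overlap, and the other 8 members overlapped. The share of all genes without overlap on this scale was not taken. The log2 ratio of Barx2 to the mean of the 10 genes was −4.20, −4.82 and −4.23 in NOD/Ltj, against −4.03, −3.67 and −2.60 in ICR. The 10 epithelial genes were themselves uneven, with 7 of them highest in ICR 1, where Epcam stood at 121 CPM against 44.8 to 78.8 CPM in the other 5 libraries.

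The genes whose TMM-scaled levels followed each factor most closely over the 6 libraries were taken from 9273 genes with a mean of at least 5 CPM, by Pearson r on the log2 scale, as a description. Bhlha15 was followed by Aass, Josd1 and Prrc1 (r between 0.993 and 0.996), Elf5 by Slc15a2, Ppm1j and S1pr3 (0.983 to 0.991) and Sox10 by Inip, Rbpms and Wiz (0.967 to 0.973). Sox9 was followed by Mfn2, Gm12070 and Rbfox2, Barx2 by 1700019D03Rik, Mgat1 and Fhl1, and Pax6 by Ndufb2, Gm20632 and Tha1. The genes nearest to Runx1 were Osgep, Fam168b and Sod3, those nearest to Runx2 were Eps15l1, Terf2 and Pkd2l2, and those nearest to Foxc1 were Zscan29, Tmem56 and A530017D24Rik. With 6 libraries such values are common: 97 genes had an r of at least 0.95 with Bhlha15 and 9 with Sox10. All points share the same 6 libraries and scaling factors.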

How the data were processed

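Lacrimal gland poly(A) RNA was made into dUTP (strand-marking) libraries and read from both ends, per the labels' protocols. Tools named in the submitters' processing notes are fastp, StringTie and edgeR, without versions or roles. Aligner, genome build and strand setting: not given in the sources used here. The authors deposited 1 table of estimated counts per gene, whole numbers not scaled between libraries, so nothing was rounded. Totals were 62318534 to 64000969 counts in NOD/Ltj and 58426580 to 76554340 in ICR. Multiples of 4 were in excess among low values (30.4 to 31.7% of values from 1 to 40, against 25% of the whole numbers in that range), so a count may not be 1 fragment, and the number of fragments is not known.

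Symbols came from GENCODE M21, which matched 55141 of 55401 identifiers, and exon lengths for CPM per kb are the union of its exons. Promoter sequences came from RefSeq (GRCm38.p6) and were oriented along the gene. The titles of the NOD/Ltj samples carry another abbreviation, and their genotype label gives the strain. Replicates are not stated to be separate animals, and p-values then measure only the spread among these libraries, which may be technical. No library repeats another (chi-square per degree of freedom at least 139.5).

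The main test was edgeR 4.0.16 (R 4.3.3), quasi-likelihood, two-sided, TMM scaling, filterByExpr, no block, with Benjamini-Hochberg adjustment over 18537 genes. The standard error is the absolute log2 fold change over the square root of F, and intervals use the test's degrees of freedom. The scripts were tested on simulated data. DESeq2 1.42.0, limma-voom (limma 3.58.1), other scalings and filters, a replicate block and leaving out each library were alternatives. Plain library totals, counts divided by 4 and the ratios were added after seeing the data. The members and all lists were chosen with earlier results of these data known. All 9 members are named. Of each list, called genes were named first (up to 4), then the largest fold changes averaging 1 CPM or more in either group, up to 3 genes in all. Cbfb, Fgfr2, Rab3d, Epcam, Pip, Obp1a, Ltf, Krt14, Jchain, Derl3, Scd1, Soat1, Awat1 and Elovl3 were added after their values were seen. The lists also held 2 genes without an identifier in the table. Some genes that the naming rule covers are not reported here.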

Additional observations from a re-analysis of the deposited data

How the results depend on the processing

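None of the 9 factors was called under any of the 16 alternatives. Of their 144 log2 fold changes under these, 7 had the other sign, all of them of Foxc1, Pax6 or Sox10, whose differences lay within their standard errors. Foxc1 ran from −0.21 to 0.12 with 1 library left out (0.0285 without ICR 2, 0.0578 without ICR 3, 0.1162 without NOD 2), and was 0.0384 when scaled to epithelial genes and 0.0815 on plain library totals. Pax6 ran from −0.37 to 0.0635 (without ICR 3) and Sox10 from −0.73 to 0.0135 (without NOD 1). The lowest adjusted p values were 0.0714 for Elf5 without ICR 1 and 0.0744 for Barx2 by DESeq2. By edgeR scaled to epithelial genes, the log2 fold change was −1.09 for Barx2 (adjusted p = 0.978) and −0.57 for Elf5, neither of them called. The count of genes called moved more. It was 1212 of 29193 tested by DESeq2, against 416 of 18537 in the main test. Of the same 18537 genes, 143 were called by limma-voom, 266 on plain library totals and 154 with the replicate number as a block. With 1 library left out, the count ran from 13 of 19240 (without NOD 3) to 524 of 19322 (without ICR 1). The cause was not tested. Scaling to epithelial genes moved the median log2 fold change of all genes by 0.119 and plain totals by 0.122. The labels do not say what the replicate numbers mark. Deviations from the group mean correlated across genes at −0.161, −0.189 and 0.118 for same-numbered libraries. For libraries of different numbers they correlated at −0.116 to 0.223. These values cannot decide whether the numbers pair the libraries, since deviations from a mean of 3 libraries offset one another. The block called 0 members, as did the main test. Of 336 counts called in the 21 lists, 298 stayed within 1.5 times, 17 were higher and 21 lower. If 1 fragment gives 4 counts, which is an assumption, a count of 0 allows 3 fragments, or 0.149 to 0.222 CPM in NOD/Ltj and 0.173 to 0.21 CPM in ICR, for counting error only.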
